A study of Homo sapiens with 4 samples.

Results

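The collagen chain genes of A549 cells were examined on 4 arrays. They were taken by symbol, as every gene named COL, a number, A and a number on a probe set that names 1 gene, and 43 of the 19775 genes measured in this way were of this kind. Of these 43 genes, 23 (53.5%) were expressed by the limit used here and 20 were not, beside 63.3% expressed among all 19775 genes. A549 is an established line of human lung adenocarcinoma cells with epithelial character. The study asked which nicotine responses need β-arrestin-1, the product of ARRB1, a scaffold protein that joins activated cell surface receptors to signalling enzymes. Cells were transfected with control siRNA or with Beta arrestin siRNA (called ARRB1 siRNA below) and then serum starved for 36 h, and nicotine, where it was given, was added at 1 µM for 24 h. For each siRNA there was 1 array of cells that were only serum starved and 1 of cells that also had nicotine, and all 4 conditions shared the transfection and the starvation. Each of these conditions had 1 Affymetrix Human Genome U133 Plus 2.0 array from 1 cell line, and without replicates no test was made and no p-value is given.

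Collagens are secreted or membrane-bound proteins whose chains wind into helices, and some types, among them the type I, IV, V and VI collagens, are assembled from chains of more than 1 gene. Fibrillar collagens form the fibres of connective tissue and are made mainly by fibroblasts. Type IV collagens form the sheet-like network of basement membranes, which epithelial cells help to build and rest on. The chains are hydroxylated and folded in the endoplasmic reticulum, and are then exported, trimmed and crosslinked outside the cell. In lung tumours, collagens of the basement membrane and of the surrounding stroma mark the border that invading cells cross.

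Each gene was read from its brightest probe set, a group of short probes against 1 transcript region. The unit was the MAS5 signal, a linear brightness. A gene was counted as expressed where the mean of its log2 signals over the 4 arrays reached the median of all 54613 probe sets, which was a signal of 66.3. Probe sets differ in how strongly they bind, so signals were compared between arrays and not between genes. Differences are given on the log2 scale, where -1 stands for a 2-fold lower signal. The only spread at hand was that between probe sets. Beside a difference, the SD is that of the log2 differences of the 500 probe sets nearest in signal, and it includes any true changes among them. In RNA from a whole culture, fewer cells that carry a transcript and less of it per cell cannot be told apart.

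The arrays were alike in brightness, with median signals between 68.6 and 73.3. ARRB1 itself had signals of 352 and 331 with control siRNA, serum starved first and nicotine next, and of 191 and 224 with ARRB1 siRNA in the same order. Signals below are given in this order of arrays. ARRB1 was lower with its siRNA at both treatments, which goes with the labels. All 6 epithelial markers were expressed, with summed signals of 58388 to 75255. Of 6 fibroblast markers, THY1 and DCN were expressed and PDGFRA, PDGFRB, LUM and FAP were below the limit, with summed signals for the list of 242 to 379.7. Of 5 endothelial markers PECAM1 alone was expressed, with summed signals of 201 to 292, and of 3 leukocyte markers none was, with 89.0 to 155.

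Type IV collagen was the only class of several genes in which every gene was expressed, 6 of 6. COL4A3 and COL4A4 fell below the limit when it was set at the 75th percentile or when the median over a gene's probe sets was used, and COL4A5 did so without _x_at and _s_at probe sets. Of the 3 measured collagens of the basement membrane zone, COL7A1 and COL18A1 were expressed and COL15A1 was not. COL17A1, also listed in this class, was not among the genes measured here. Of 11 fibrillar chain genes 6 were expressed, namely COL1A1, COL5A1, COL5A2, COL5A3, COL11A2 and COL27A1. Of 5 type VI genes 2 were expressed, COL6A1 and COL6A2. Of 10 FACIT collagens, which bind to the surface of fibres, 6 were expressed, namely COL9A2, COL12A1, COL16A1, COL20A1, COL21A1 and COL22A1. Of 3 further transmembrane collagens COL13A1 alone was expressed. The 3 short chain network collagens, COL8A1, COL8A2 and COL10A1, and the remaining COL26A1 and COL28A1 were below the limit.

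**Figure D1:**
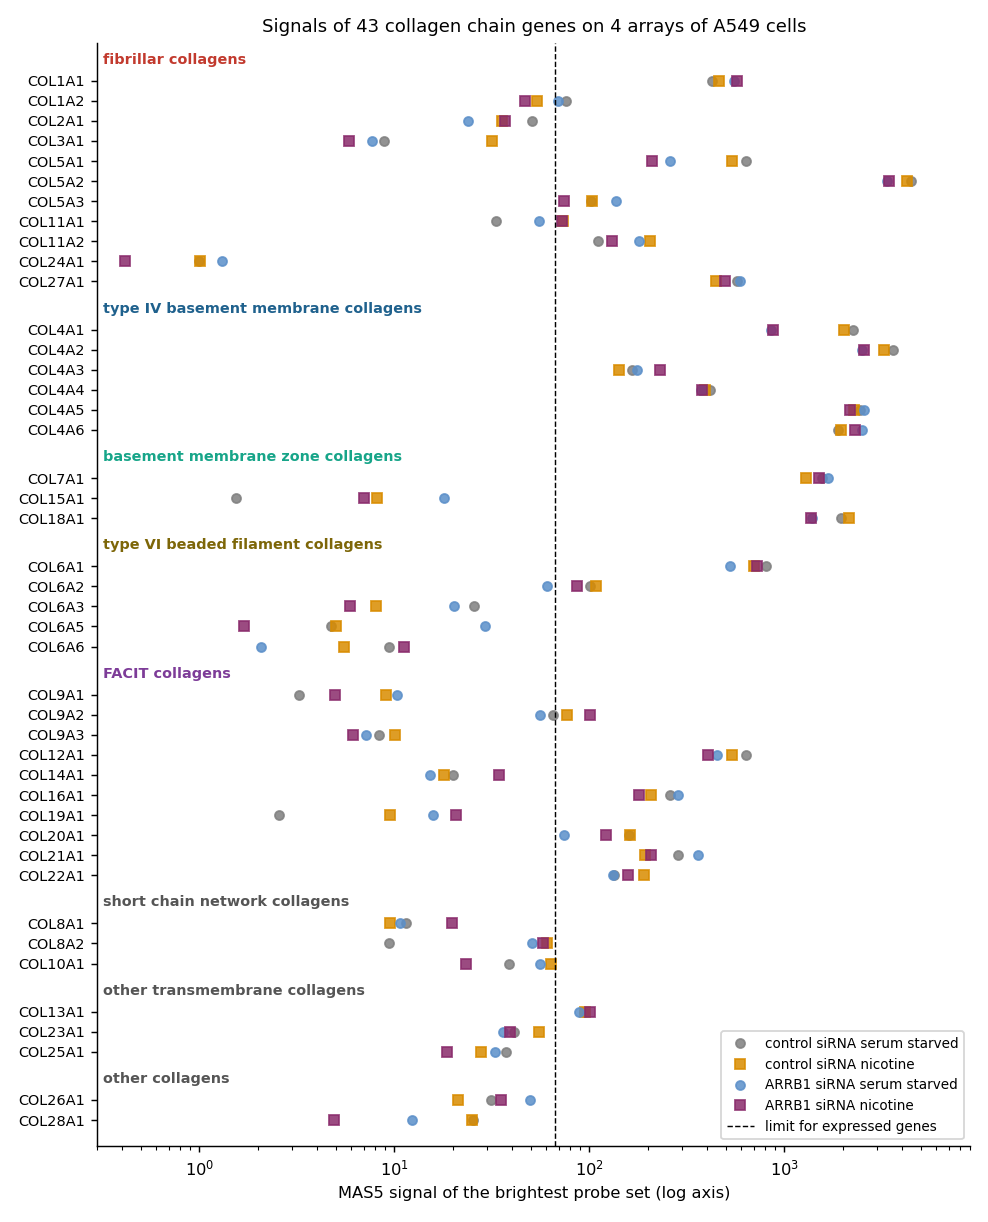
Signals of the brightest probe set of each of the 43 collagen chain genes on the 4 arrays, on a log axis, grouped by class, with the limit of 66.3 for expressed genes as a dashed line. All 6 type IV genes lie to the right of the limit on every array, while COL3A1, COL15A1 and COL24A1 lie far to its left.

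By the brightest probe set, the chains that assemble together were not always expressed together. COL1A1 was above the limit and its partner COL1A2 was below it, at 75.9, 53.9, 69.0 and 46.7. For type V, all 3 chain genes were expressed. For type XI, COL11A2 was expressed, while COL11A1 had 33.1, 72.9, 54.9 and 72.6. For type VI, the partner COL6A3 had 25.5, 8.01, 20.3 and 5.93, below the limit on every array. For type IX, COL9A2 was expressed and COL9A1 and COL9A3 were not. COL3A1, the type III chain of stromal fibres, had 8.80, 31.7, 7.72 and 5.88. The limit cuts through a range of dim genes: the members just inside it were COL9A2, at 65.1, 76.5, 55.8 and 101, and COL6A2, and those just outside were COL1A2 and COL11A1. COL9A2 reached its array's own median on 2 arrays, COL6A2 on 3, and each of the other 21 expressed genes on all 4. These contrasts between partner chains turned on the probe set and the limit. COL1A2 and COL11A1 passed a limit at the 25th percentile, COL1A1 and COL6A1 were lost without _x_at and _s_at probe sets, COL6A1 and COL9A2 were lost with the median over probe sets, and COL11A2, COL6A2 and COL9A2 were lost at the 75th percentile.

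Type IV collagen is built from 6 genes that lie in head-to-head pairs, each pair read outwards from a common stretch of DNA. COL4A1 and COL4A2 encode the chains of the network found in nearly all basement membranes. COL4A3, COL4A4 and COL4A5 encode those of the alveolar and glomerular membranes, and COL4A6 joins COL4A5 in other epithelia. In RefSeq promoters of GRCh38.p14, the starts of COL4A1 and COL4A2 lie 127 bases apart, those of COL4A4 and COL4A3 419, and those of COL4A6 and COL4A5 380 for the nearer of the starts listed for COL4A6. The COL4A1 window, which runs from 250 bases before the start to 50 after it and shares 226 bases with that of COL4A2, is printed because both genes had lower signals with ARRB1 siRNA. It lies on the minus strand at chr13:110307108-110307407, and the capitals mark the 128 bases from the start of COL4A2 to the start of COL4A1.
COL4A1: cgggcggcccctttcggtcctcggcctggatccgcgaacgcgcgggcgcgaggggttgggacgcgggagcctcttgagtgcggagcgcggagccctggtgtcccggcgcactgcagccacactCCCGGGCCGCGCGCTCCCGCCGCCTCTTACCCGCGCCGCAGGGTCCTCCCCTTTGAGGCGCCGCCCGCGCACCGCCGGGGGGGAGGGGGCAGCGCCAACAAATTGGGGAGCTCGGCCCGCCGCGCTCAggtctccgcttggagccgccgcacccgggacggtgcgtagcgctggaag

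This window held GGGCGG at 2 places, CCAAT at 1 and TATAAA at none, with both strands searched. GGGCGG was present in 45.0% of all 35116 RefSeq promoter windows of this length, CCAAT in 34.6% and TATAAA in 11.5%. Of the 43 collagen windows, which belong to 31 genes, 24 (55.8%) held GGGCGG, 13 (30.2%) CCAAT and 7 (16.3%) TATAAA. TTTCGCGC or TTTGGCGC, forms of the E2F motif, was present in 1.15% of all windows and in none of the 43 collagen windows. These are matches of letters only.

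With ARRB1 siRNA, COL4A1 was the type IV gene that differed most by its brightest probe set. Its signals were 2246, 2022, 857 and 871, so that both arrays with ARRB1 siRNA were below both arrays with control siRNA. The difference was -1.39 (SD 0.30) in serum starved cells and -1.22 (SD 0.32) in nicotine treated cells, or 38.1% and 43.1% of the control siRNA signal. A dimmer probe set had 265, 337, 191 and 229, and its differences of -0.47 and -0.55 were in the same direction and under 2-fold. The median of the 2 probe sets was therefore -0.93 and -0.88, inside the 2-fold limit.

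COL4A2, across the shared promoter, had 3607, 3248, 2507 and 2551. It was lower with ARRB1 siRNA in both pairs, by -0.52 (SD 0.24) and -0.35 (SD 0.29), which is less than 2-fold. Its second probe set had -0.19 and -0.56. The remaining genes of the family lay on both sides of 0. COL4A4 had 415, 392, 375 and 380.15, with differences of -0.15 and -0.05, and COL4A3 had 165, 142, 175 and 229, with 0.09 and 0.69 (SD 0.47). COL4A5 had 2443, 2272, 2574 and 2169, with differences of 0.08 and -0.07. COL4A6 had 1892, 1946, 2501 and 2302, and was higher with ARRB1 siRNA by 0.40 (SD 0.25) and 0.24 (SD 0.30), although its 2 dimmer expressed probe sets gave signs that differed between the pairs. The 6 type IV genes thus held differences from -1.39 to 0.40 in serum starved cells, and from -1.22 to 0.69 with nicotine. Their median was -0.04 and -0.06, near 0 as for all expressed genes, at 0.02 in each pair.

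COL4A4 was 1 of the genes the study followed, by a probe set other than the brightest. That probe set had 3.64, 50.1, 8.29 and 12.9, below the limit on all 4 arrays. Its difference with nicotine was 3.78 in control siRNA cells, where the SD of probe sets at that signal was 1.64, and 0.64 in ARRB1 siRNA cells, where it was 1.71. A further dim probe set of the gene had 11.4, 24.3, 49.6 and 20.3. The brightest probe set of the gene differed with nicotine by -0.08 (SD 0.26) and 0.02 (SD 0.31) in the same pairs of arrays.

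Among the expressed fibrillar genes, COL5A1, whose chain starts and limits the width of collagen fibrils, differed most with ARRB1 siRNA. Its promoter window is printed as that of the other gene at least 2-fold lower in both pairs. It lies on the plus strand at chr9:134641553-134641852 (RefSeq, GRCh38.p14), with GGGCGG on either strand in capitals, at 2 places.
COL5A1: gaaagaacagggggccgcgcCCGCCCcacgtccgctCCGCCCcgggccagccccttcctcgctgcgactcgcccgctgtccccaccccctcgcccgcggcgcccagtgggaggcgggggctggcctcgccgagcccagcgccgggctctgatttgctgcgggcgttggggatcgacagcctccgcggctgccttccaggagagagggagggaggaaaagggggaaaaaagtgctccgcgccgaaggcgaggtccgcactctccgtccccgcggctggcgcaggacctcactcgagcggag

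COL5A1 had signals of 634, 541, 259 and 211, again with both ARRB1 siRNA arrays below both control siRNA arrays. The difference was -1.29 (SD 0.38) in serum starved cells and -1.36 (SD 0.40) with nicotine, or 40.8% and 39.0% of control. The gene has 3 expressed probe sets and all were lower in both pairs. The dimmest had 328, 306, 163 and 131.5, with -1.01 and -1.22, and the other had 462, 428, 274 and 291, with -0.75 and -0.56. The middle one of these 3 differences was -1.01 when serum starved and -1.22 with nicotine. Where the median signal of the probe sets was taken on each array first, the differences were -0.83 and -1.02. By that order of steps only the nicotine pair stayed past 2-fold.

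COL5A2, the partner chain in type V collagen, had 4459.8, 4280.1, 3347 and 3451. It was lower with ARRB1 siRNA by -0.41 (SD 0.24) and -0.31 (SD 0.27), and its second probe set by -0.51 and -0.20. COL5A3, the third type V chain, had 102, 103, 137 and 74.0, with siRNA differences of opposite sign, 0.42 (SD 0.56) and -0.48 (SD 0.55), both within the SD.

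**Figure D2:**
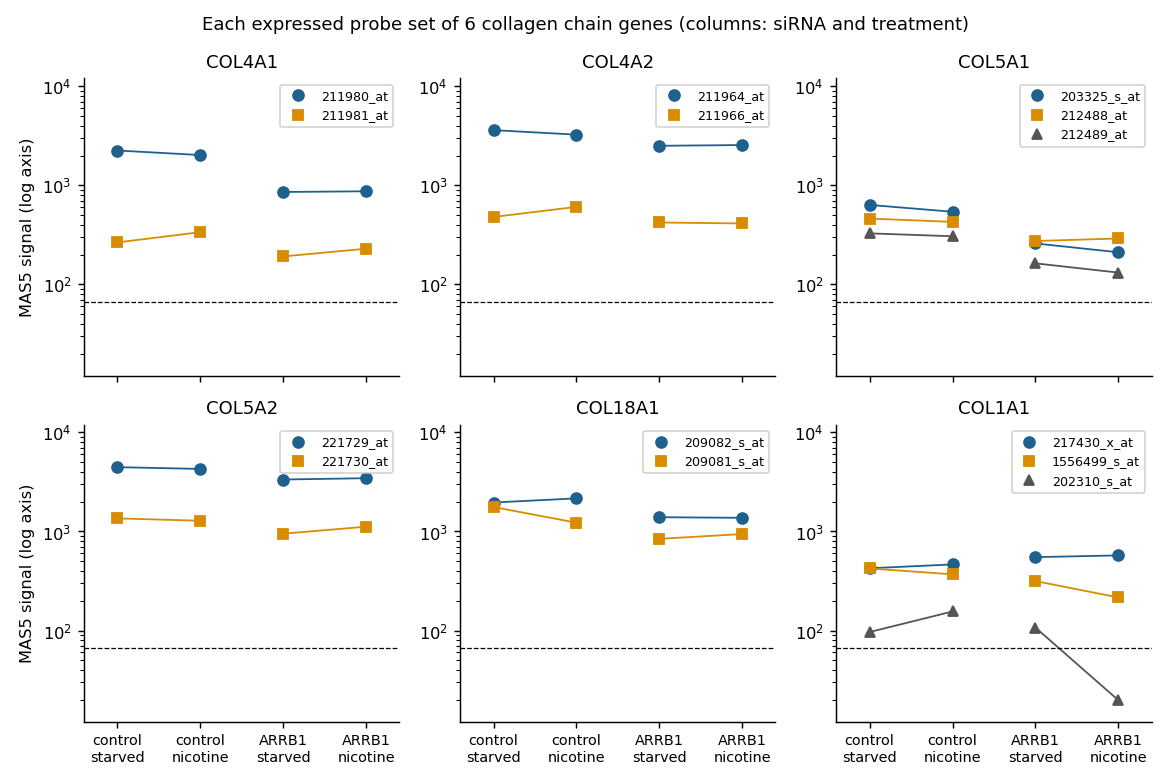
Signals, on a log axis, of every expressed probe set of 6 collagen genes in the 4 conditions, with lines joining the 2 treatments of 1 siRNA and the limit of 66.3 dashed. Every probe set of COL4A1, COL4A2, COL5A1, COL5A2 and COL18A1 is lower in ARRB1 siRNA cells than in control siRNA cells at the same treatment, while those of COL1A1 go different ways.

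COL1A1, the main chain of type I collagen, was read differently by its probe sets. The brightest had 425, 465, 551 and 573, higher with ARRB1 siRNA by 0.37 (SD 0.31) and 0.30 (SD 0.32). The next had 423, 369, 316 and 216, lower by -0.42 and -0.78. The dimmest of the expressed ones had 96.6, 156, 107 and 19.8, and 2 further probe sets were below the limit. No direction can be given for COL1A1 from these arrays, and the brightest probe set carries the suffix _x_at, the maker's mark for probes that may bind other transcripts.

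COL11A2, a chain of cartilage type XI collagen, had 111, 204, 179.5 and 131. Its siRNA differences were 0.69 (SD 0.47) when serum starved and -0.64 (SD 0.45) with nicotine, while its other expressed probe set stayed between 133 and 159. COL27A1, another cartilage collagen, had 569.95, 447, 594 and 498, with 0.06 and 0.16. Its other expressed probe sets gave 0.31 and 0.34 when serum starved, and -0.08 and -0.29 with nicotine. The median siRNA difference of the 6 expressed fibrillar genes was 0.22 when serum starved and -0.40 with nicotine.

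Of the collagens that anchor basement membranes, COL18A1 and COL7A1 differed in sign by their brightest probe sets. COL18A1, a heparan sulfate collagen whose end is released as endostatin, had 1961, 2158, 1394 and 1373. It was lower with ARRB1 siRNA by -0.49 (SD 0.25) and -0.65 (SD 0.28), and its second probe set, with 1765, 1227, 842 and 942, by -1.07 and -0.38. COL7A1, the collagen of anchoring fibrils, had 1561, 1292, 1665 and 1505, with 0.09 (SD 0.25) and 0.22 (SD 0.28). Both values were within the SD, and its second probe set gave 0.22 and -0.03.

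Type VI collagen forms beaded filaments next to basement membranes. COL6A1 had 803, 700.1, 527 and 725, with siRNA differences of -0.61 (SD 0.34) when serum starved and 0.05 (SD 0.34) with nicotine. COL6A2 had 101, 108, 60.4 and 86.4, with -0.73 (SD 0.64) and -0.32 (SD 0.60). Among the FACIT collagens, COL12A1, which is found on fibres under tension, had 636, 536, 453 and 405, lower by -0.49 (SD 0.31) and -0.40 (SD 0.31), although a dimmer probe set of it gave 0.42 and 0.64. COL20A1 had 161, 162, 74.4 and 122. It was lower by -1.11 (SD 0.47) in serum starved cells, the only further expressed collagen gene past 2-fold, and by -0.41 (SD 0.51) with nicotine. The other probe set of COL20A1 was between 1.55 and 29.2 and higher in both pairs. COL16A1 had 259, 206, 284 and 181, with 0.13 and -0.19, and COL22A1 had 133, 191, 132 and 159, with -0.01 and -0.27. COL13A1, a transmembrane collagen found at cell adhesions, had 94.4, 94.6, 88.1 and 100.4, with -0.10 and 0.09.

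Counted together, 3 of the 23 expressed collagen genes were at least 2-fold lower with ARRB1 siRNA when serum starved and none was 2-fold higher, beside 1.80% of the 12521 expressed genes past 2-fold in either direction. With nicotine 2 were 2-fold lower and none higher, beside 2.28%. COL4A1 and COL5A1 were at least 2-fold lower in both pairs, which share no array, as were 0.327% of all expressed genes. At any size, 10 of the 23 were below 0 in both pairs, beside 30.0% of all expressed genes, and 6 were above 0 in both, beside 34.6%, namely COL4A6, COL7A1, COL27A1, COL1A1, COL21A1 and COL4A3. Of 11 collagen genes with several expressed probe sets, 5 had each of them lower in both pairs, against 11.9% of all 6065 such genes. These 5 were COL4A1, COL4A2, COL5A1, COL5A2 and COL18A1. COL7A1 and COL27A1 had each expressed probe set higher when serum starved, and none of the 11 genes did with nicotine. The median over the 23 was -0.10 in serum starved cells and -0.19 with nicotine, against 0.02 and 0.02 over all expressed genes. Among the epithelial markers, the adhesion protein CDH1 was lower with ARRB1 siRNA, with 5218, 4812, 3201 and 2827. EPCAM was also below 0 in both pairs, by -0.02 and -0.28. The keratins KRT7, KRT8, KRT18 and KRT19 were above 0 in both. The median over the 6 epithelial markers was 0.05 when serum starved and 0.16 with nicotine. The summed fibroblast markers went from 312 to 242 between the serum starved arrays and from 260.4 to 379.7 between the nicotine arrays. In the nicotine pair THY1, PDGFRA, PDGFRB and FAP were higher and DCN and LUM were lower. Of these genes only THY1 and DCN were above the limit. The part of the cells marked by these genes in the collagen values was not tested.

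**Figure D3:**
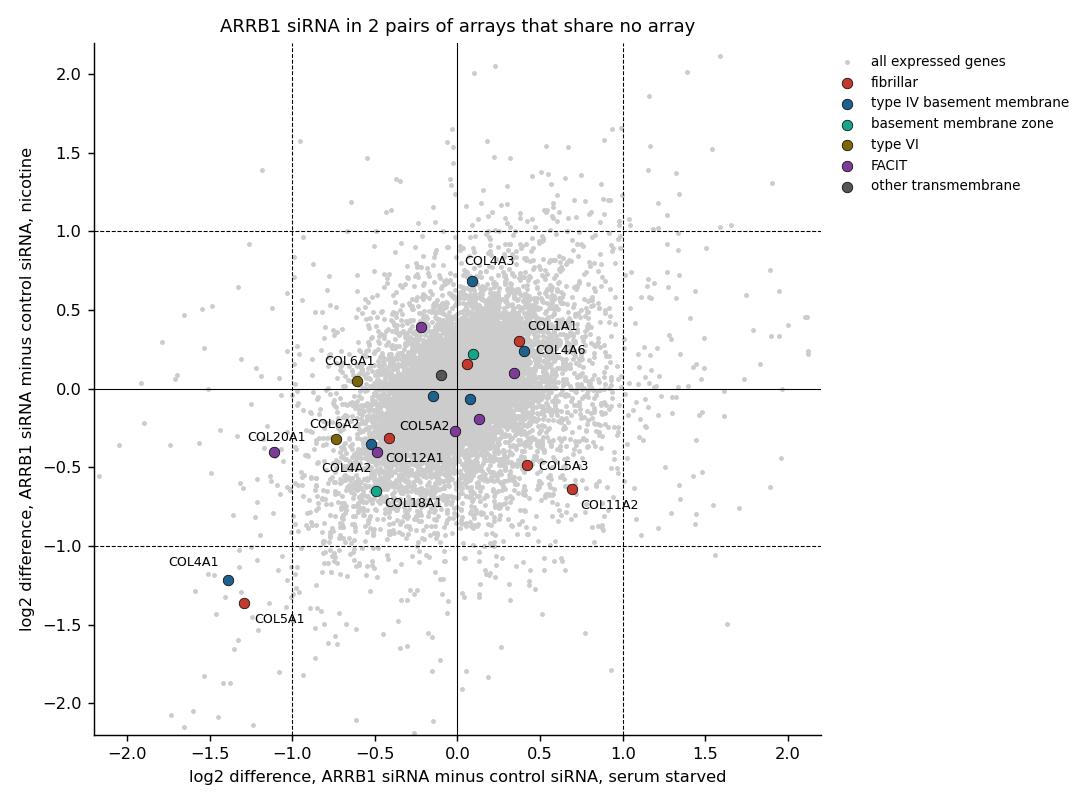
Log2 difference with ARRB1 siRNA in the serum starved pair (horizontal axis) and in the nicotine pair (vertical axis) for all expressed genes (grey, 29 of them outside the axes) and the 23 expressed collagen genes (coloured by class), with dashed lines at 2-fold. COL4A1 and COL5A1 lie at least 2-fold lower on both axes, and the other collagen genes lie inside 2-fold on at least 1 axis.

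With nicotine, no expressed collagen gene differed 2-fold in control siRNA cells, where 1.05% of all expressed genes did, and none in ARRB1 siRNA cells, where 1.45% did. The medians over the 23 genes were -0.08 and 0.02, against -0.02 and -0.01 over all expressed genes. The 6 type IV genes had medians of -0.13 and 0.02. COL4A1 differed with nicotine by -0.15 (SD 0.20) and 0.02 (SD 0.27), and COL5A1 by -0.23 (SD 0.28) and -0.30 (SD 0.33), so that the genes with the largest siRNA differences were within the SD here.

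The larger nicotine differences were in other genes. COL21A1, a FACIT collagen, had 286, 193, 363 and 207, and was lower with nicotine in both pairs, by -0.57 (SD 0.32) and -0.81 (SD 0.34). COL16A1 was lower in both as well, at -0.33 (SD 0.33) and -0.65 (SD 0.35). COL22A1 was higher in both, at 0.52 (SD 0.39) and 0.27 (SD 0.46). COL11A2 was higher in control siRNA cells, at 0.88 (SD 0.39), and lower in ARRB1 siRNA cells, at -0.45 (SD 0.45), which its second probe set did not share, at -0.08 and 0.09. COL5A3 differed by 0.02 and -0.89 (SD 0.50), COL9A2 by 0.23 and 0.85 (SD 0.63), and COL20A1 by 0.01 and 0.72 (SD 0.46). Whether nicotine differences of these genes differ between the siRNAs was not tested.

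**Figure D4:**
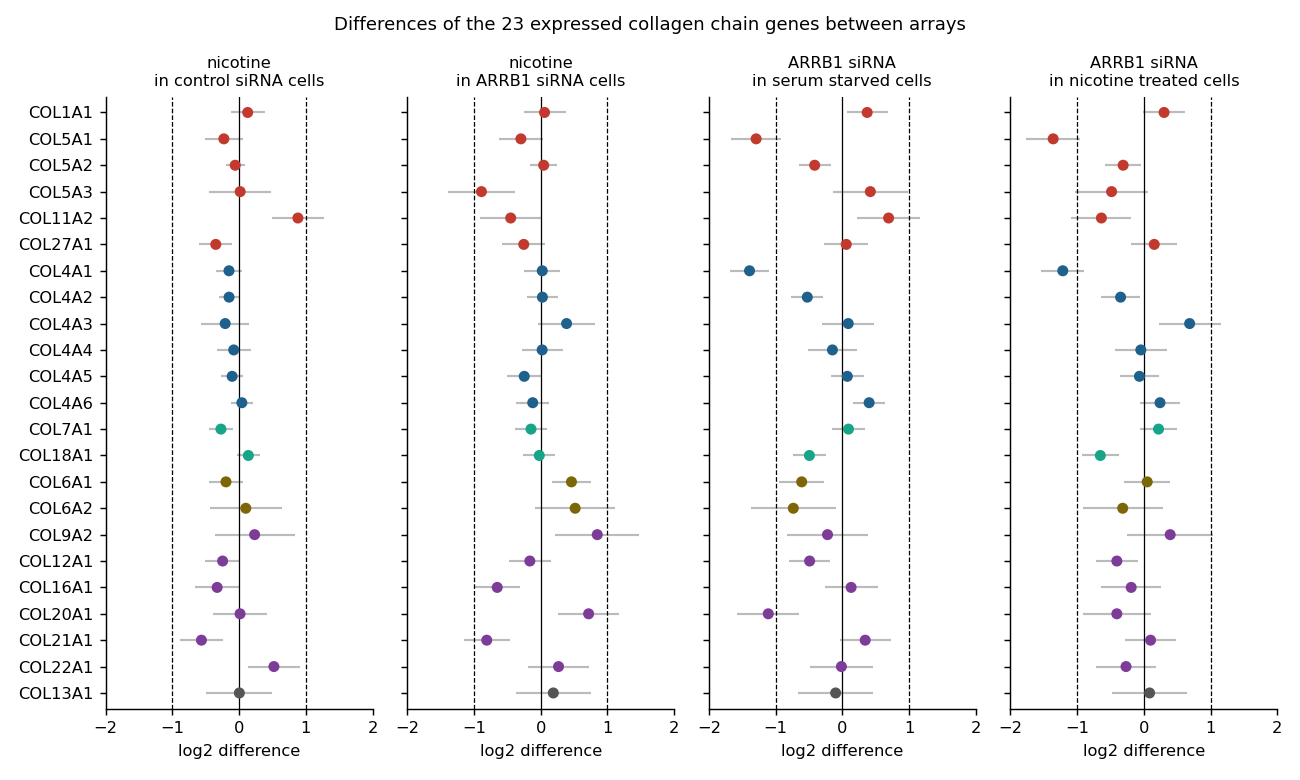
Log2 difference of each of the 23 expressed collagen genes in the 4 comparisons, coloured by class, with grey bars of 1 SD of the 500 probe sets nearest in signal and dashed lines at 2-fold. No gene passes 2-fold with nicotine, while COL4A1 and COL5A1 pass it in both siRNA comparisons and COL20A1 in serum starved cells.

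The 20 collagen genes below the limit varied widely between arrays. In control siRNA cells 6 were at least 2-fold higher with nicotine and 1 was lower, and in ARRB1 siRNA cells 2 were higher and 7 lower, while 39.3% and 40.8% of all genes below the limit passed 2-fold. For the siRNA, 5 were higher and 3 lower when serum starved, and 3 higher and 5 lower with nicotine, beside 39.0% and 41.4%. COL15A1, for example, had 1.54, 8.12, 18.0 and 6.99, and COL24A1 had 1.00, 1.007, 1.31 and 0.417. The SD of probe sets at these signals was between 1.58 and 1.80 on the log2 scale.

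The genes that make a chain into a working collagen were also measured. All 20 measured genes of chain modification, folding and export were expressed. None of the 20 passed 2-fold with ARRB1 siRNA when serum starved, and MIA2 alone did so with nicotine. MIA2, which helps to load collagen for export, had 548, 673, 789 and 302, so that the last array stood apart, with -1.15 against control siRNA and -1.38 against serum starved cells. P4HA2, a subunit of the enzyme that hydroxylates proline in collagen, had 2035, 1678, 1119 and 1074, and was lower with ARRB1 siRNA by -0.86 (SD 0.27) and -0.64 (SD 0.29). P4HA1, the sister subunit, had 2044, 1772, 1745 and 1766. PLOD2, which hydroxylates lysine for crosslinks, had 9343, 10029, 12705 and 13108, and was higher by 0.44 (SD 0.17) and 0.39 (SD 0.19). SERPINH1, the collagen chaperone, differed by -0.15 and -0.05.

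Of 14 genes of propeptide cleavage and crosslinking 6 were expressed, and none of these 6 passed 2-fold in any comparison. LOXL4, a lysyl oxidase, had the largest difference among them, 0.76 with nicotine in control siRNA cells, at signals of 109, 185, 148 and 146. PCOLCE of this list, below the limit at a mean signal of 59.1, had 23.5, 150, 30.3 and 115. With nicotine it differed by 2.67 (SD 0.69) in control siRNA cells and 1.92 (SD 0.73) in ARRB1 siRNA cells. Among all genes below the limit, 39.3% and 40.8% passed 2-fold in these comparisons. All 9 measured collagen receptors were expressed and none passed 2-fold. Of these, GP6 and LAIR1 were near the limit, with mean signals of 75.9 and 77.3. GP6 reached its array's own median on 3 arrays and LAIR1 on 2. ITGA1, an integrin subunit that binds type IV collagen, had 178, 135, 91.2 and 88.1. It was lower with ARRB1 siRNA by -0.97 (SD 0.51) and -0.61 (SD 0.54). ITGA2, a collagen-binding integrin subunit of epithelia, had 3984, 3800.0, 3050.2 and 2988.5, lower by -0.39 (SD 0.24) and -0.35 (SD 0.28). ITGA10, an integrin subunit of cartilage, was higher, at 140.2, 133, 199 and 261, by 0.51 (SD 0.38) and 0.97 (SD 0.45). ITGB1, the integrin beta subunit of this list, had 16722, 18941, 21138 and 21742. It was higher by 0.34 (SD 0.11) and 0.20 (SD 0.14).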

How the data were processed

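The 4 arrays (Affymetrix U133 Plus 2.0, A549 cells) were assigned to siRNA and treatment by their labels. RNA was isolated on Qiagen RNeasy columns and amplified and biotin labelled with the Ambion MessageAmp Premier protocol. The deposited values are intensities on a linear scale, made by the authors with MAS5 (GCOS 1.4, from the submitters' processing notes), whereas the text of the paper has Expression Console in its results. With 2% of probe sets trimmed at either end, each array had a mean of 500.1, so arrays were already scaled. The log2 transformation and centring of each gene described in the paper's methods are not in these values. Detection calls are not used here. Precision is limited by the number of arrays.

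Signals were compared as log2 differences with no further scaling in Python 3.11.15 with numpy 2.4.6, pandas 2.3.3 and scipy 1.17.1, and figures were drawn with matplotlib 3.10.9. Of 54675 probe sets 62 controls were left out, and 41091 of the rest had 1 gene symbol in the table of probe sets and genes. Each gene was represented by its brightest probe set in mean log2 signal. Differences are nicotine minus serum starved, and ARRB1 siRNA minus control siRNA. The 2-fold limit is that of the submitters' notes. There were no replicates, and no test was made, although an additive fit of siRNA and treatment over the 4 arrays would leave 1 residual degree of freedom. The steps were tested on simulated data. RefSeq promoter windows were matched by symbol for 31 of the 43 genes. Every collagen gene could be named, as could genes of 3 lists (modification, cleavage and receptors) that passed 2-fold or stood out in their list, CDH1 and other markers, and ARRB1. P4HA1, SERPINH1, PLOD2, ITGA2, ITGB1, GP6 and LAIR1 were named after their values were seen. The collagen genes, their classes and the other lists were chosen with earlier results of these data known. Alternatives were centring on array medians, quantile normalization, a floor on the signal, filters at other percentiles, limits of 1.5-fold and 3-fold, the median over probe sets, leaving out _x_at and _s_at probe sets, and a rule by each array's own median.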

Additional observations from a re-analysis of the deposited data

Results flagged for a closer look

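In 4 collagen genes, all below the limit for expressed genes, 1 contrast gave at least 2-fold differences of opposite sign in its 2 pairs of arrays, and these differences between pairs were not tested. With nicotine, COL15A1 was at 2.40 on the log2 scale in control siRNA cells and -1.37 in ARRB1 siRNA cells, and COL9A1 at 1.47 and -1.05. With ARRB1 siRNA, COL6A5 was at 2.63 in serum starved and -1.57 in nicotine treated cells, and COL6A6 at -2.18 and 1.03. Among probe sets of like signal, the log2 differences had an SD between 1.62 and 1.79.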

How the results depend on the processing

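With 1 array per condition no replicate was left out, and a paired fit over the 2 pairs of arrays of a contrast was not made. Centring, quantile normalization and a floor at the 25th percentile changed no count of expressed or 2-fold different collagen genes, although centring shifted the median of all expressed genes to -0.12 and 0.06 for nicotine and to -0.06 and 0.10 for ARRB1 siRNA. The number of expressed collagen genes was 11 with a filter at the 75th percentile, 15 with the median over probe sets and 15 without _x_at and _s_at probe sets, and 32 with a filter at the 25th percentile and 21 by each array's own median, against 23. For nicotine in control siRNA cells, 2 genes passed 2-fold with a filter at the 25th percentile and 1 passed 1.5-fold, and the median was 0.065 with the median over probe sets. For nicotine in ARRB1 siRNA cells, 2 passed with the 25th percentile, 2 with the median over probe sets and 5 at 1.5-fold. For ARRB1 siRNA in serum starved cells, where 3 passed, 1 passed with the 75th percentile and 1 without _x_at and _s_at probe sets (COL4A1 in both), 1 with the median over probe sets (COL6A2), 5 with the 25th percentile, 6 at 1.5-fold and 0 at 3-fold, and the median was -0.41 with the 75th percentile and -0.22 without _x_at and _s_at. For ARRB1 siRNA with nicotine, 2 passed under the main settings. There, 1 passed with the 75th percentile and 1 without _x_at and _s_at (COL4A1 in both), 5 at 1.5-fold and 0 at 3-fold. With the median over probe sets 2 passed as well, but these were COL1A1 and COL5A1, and COL4A1 did not. The median over the genes was -0.067 with the 75th percentile. COL20A1 in serum starved cells reversed to 1.02 without _x_at and _s_at, since a dimmer probe set then stood for it. Without them COL5A1 had -0.75 and -0.56. Of 444 differences of single genes computed again, 378 stayed within the SD at their signal, 65 moved past it and 1 reversed from a 2-fold difference. The sign was another one in 60 of the 444, and 20 of these had moved by no more than the SD. Why the results differed between these settings was not tested.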
